A study of Mus musculus with 6 samples.

Results

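The silencing complex genes described here are 9 genes whose proteins write, recruit or read H3K9 methylation, namely *Setdb1*, *Setdb2*, *Atf7ip*, *Trim28*, *Mphosph8*, *Pphln1*, *Cbx1*, *Cbx3* and *Cbx5*. Their peaks are those of the WT-specific H3K9me3 list that the authors assigned to one of these symbols, by the nearest transcription start site (TSS) in the annotation the authors used. This gave 8 of 34673 peaks, all at 3 of the 9 genes, with 4 at *Pphln1*, 3 at *Atf7ip* and 1 at *Cbx3*. With the nearest TSS recomputed from RefSeq, 4 of the 8 peaks kept these genes, 2 at *Pphln1*, 1 at *Atf7ip* and 1 at *Cbx3*. No peak was assigned to *Setdb1*, *Setdb2*, *Trim28*, *Mphosph8*, *Cbx1* or *Cbx5*. All 9 symbols were found in the RefSeq annotation of GRCm38.p6 (mm10), to which every position below refers.

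The series is H3K9me3 ChIP-seq of Bergmann glia (BG), a radial type of astroglia in the cerebellar cortex, sorted at postnatal day 10 on a C57BL/6 strain background, with 2 WT libraries, 2 Setdb1 mutant libraries and 2 control libraries. Per the study's methods, BG were sorted by Nes-GFP, in which *Nestin* elements drive the fluorescent protein, and mutant BG carried a conditional *Setdb1* deletion by mGFAP-Cre, which acts in cerebellar nerve cells other than Purkinje cells and is therefore not limited to BG. The titles of the control libraries name input and their antibody label names IgG. The deposited list holds peaks called for WT BG that mutant BG lacked, with the libraries merged. It gives no value per library, so sequencing depth and replicate error are unknown and the genotypes could not be compared by a test. The list holds no RNA, so it could be used neither to check the sorted cells by BG markers nor to check the loss of *Setdb1*.

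Setdb1 adds methyl groups to lysine 9 of histone H3 and is brought to repeats and genes by Trim28, which itself is bound by KRAB zinc finger proteins. Atf7ip binds Setdb1 and keeps it stable in the nucleus. The human silencing hub (HUSH) joins Tasor, periphilin (Pphln1) and Mphosph8, whose chromodomain binds H3K9me3, and works with Setdb1 on retroelements and other long intronless DNA. Cbx5, Cbx1 and Cbx3 are the heterochromatin proteins HP1 alpha, HP1 beta and HP1 gamma, which also read H3K9me3, and Setdb2 is a relative of Setdb1.

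The sequence around the centre of the peak with the highest score and of the peak closest to the TSS is shown for each gene with assigned peaks, since these are the regions the description rests on. For *Atf7ip* and *Cbx3* these are the same peak. The peak inside *Mphosph8* is shown as well, a choice made after its values were seen. Each run is 300 bases of the plus strand of GRCm38.p6 from RefSeq, 5′ to 3′, and capitals mark CG dinucleotides, the site of CpG methylation.
Atf7ip, upstream peak, chr6:136514344-136514643: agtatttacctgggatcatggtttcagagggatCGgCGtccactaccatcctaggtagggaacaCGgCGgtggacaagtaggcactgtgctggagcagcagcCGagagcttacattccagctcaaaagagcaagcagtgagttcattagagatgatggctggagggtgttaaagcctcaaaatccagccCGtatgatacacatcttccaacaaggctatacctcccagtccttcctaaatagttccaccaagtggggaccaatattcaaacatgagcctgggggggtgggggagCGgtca
Pphln1, peak beyond the 3′ end, chr15:93494589-93494888: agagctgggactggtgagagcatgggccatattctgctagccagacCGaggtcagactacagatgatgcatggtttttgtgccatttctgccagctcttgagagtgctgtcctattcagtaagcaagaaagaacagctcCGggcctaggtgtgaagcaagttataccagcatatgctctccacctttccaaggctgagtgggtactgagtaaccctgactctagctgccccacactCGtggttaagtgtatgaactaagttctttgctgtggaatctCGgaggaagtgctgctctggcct
Pphln1, intron peak closest to the TSS, chr15:93420780-93421079: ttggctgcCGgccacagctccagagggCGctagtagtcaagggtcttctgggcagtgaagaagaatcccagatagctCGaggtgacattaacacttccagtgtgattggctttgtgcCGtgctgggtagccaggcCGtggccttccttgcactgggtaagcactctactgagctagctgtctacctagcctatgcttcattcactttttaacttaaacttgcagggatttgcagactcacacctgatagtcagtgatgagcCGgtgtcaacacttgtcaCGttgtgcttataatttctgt
Cbx3, peak beyond the 3′ end, chr6:51493173-51493472: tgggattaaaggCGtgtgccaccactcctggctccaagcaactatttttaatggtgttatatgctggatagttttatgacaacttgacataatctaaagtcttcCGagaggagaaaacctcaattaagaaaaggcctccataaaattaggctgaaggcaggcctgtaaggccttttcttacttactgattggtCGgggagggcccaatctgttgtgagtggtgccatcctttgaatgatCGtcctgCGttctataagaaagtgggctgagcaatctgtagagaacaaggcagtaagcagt
Mphosph8, intron peak, chr14:56692533-56692832: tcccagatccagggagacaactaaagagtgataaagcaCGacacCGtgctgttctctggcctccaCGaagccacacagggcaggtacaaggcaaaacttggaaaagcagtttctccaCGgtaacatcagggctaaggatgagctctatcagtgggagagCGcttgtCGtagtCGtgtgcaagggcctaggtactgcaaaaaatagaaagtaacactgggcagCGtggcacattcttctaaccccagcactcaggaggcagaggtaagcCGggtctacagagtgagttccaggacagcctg
The *Mphosph8* run held 9 CG dinucleotides, the *Atf7ip* run and the *Pphln1* intron run 7 each, the *Cbx3* run 5 and the other *Pphln1* run 4. Their G + C content ranged from 44.3% for *Cbx3* to 52.7% for *Mphosph8*. TTGGCA, taken here as a nuclear factor I motif, was searched on both strands and was in none of these 5 runs. Of windows of this length around the centres of all peaks, 17.3% held TTGGCA. The shorter TTGGC was not counted, although the *Pphln1* intron run opens with it. Whether these runs hold other forms of a nuclear factor I site was not tested.

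Read against the whole list, peaks were assigned to 3 of 9 of the genes (33.3%), where 50.9% of 21000 protein-coding genes had an assigned peak. A peak of any assignment overlapped the gene body of *Pphln1* and *Mphosph8*, 2 of 9 genes (22.2%), against 31.7% of protein-coding genes. *Atf7ip* and *Setdb2* had a peak centre within 10 kb of their 5′ end, as had 25.4% of protein-coding genes. No member had a peak centre within 1 kb of its 5′ end, the case for 2.2% of protein-coding genes. Both *Atf7ip* and *Pphln1* had 3 or more assigned peaks, as had 16.5% of protein-coding genes, but with the recomputed TSS neither had more than 2. The shares among the 9 genes rest on 0 to 3 genes each and differ from the background by no more than a few genes.

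**Figure D1:**
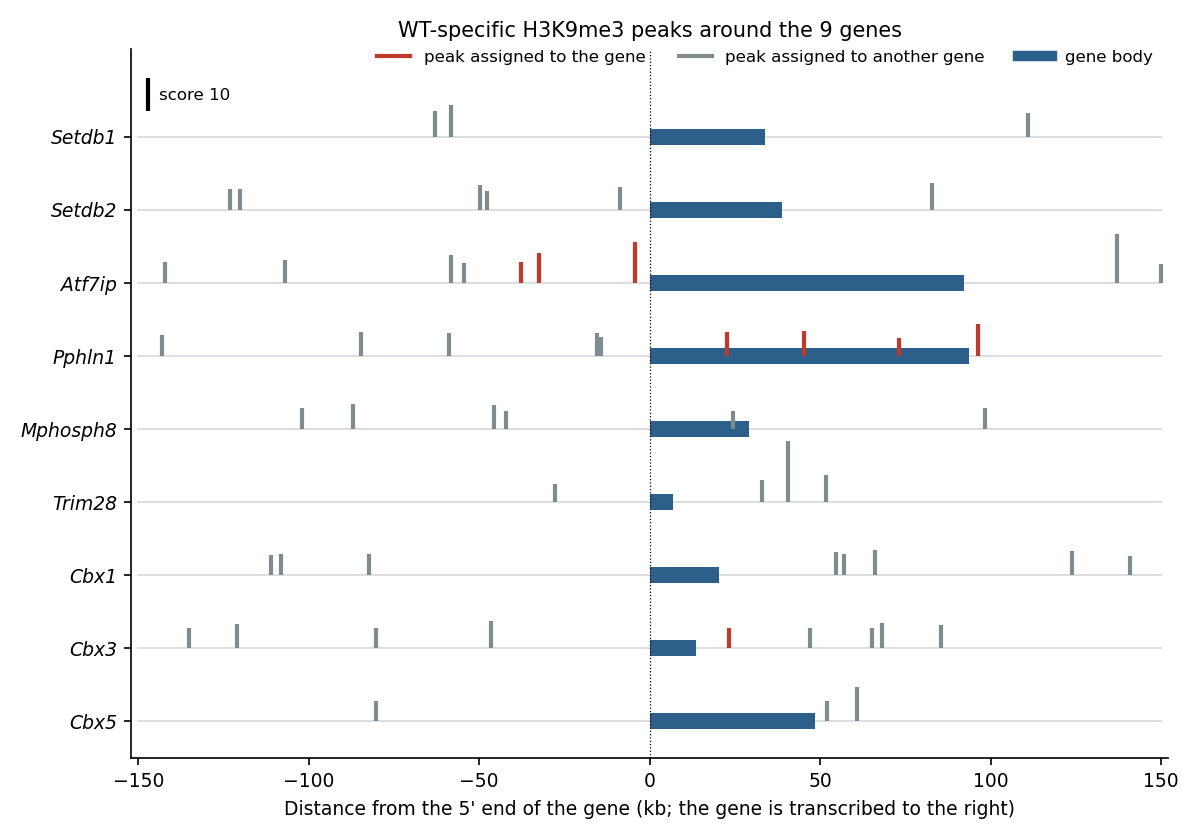
Positions of WT-specific H3K9me3 peaks within 150 kb of the 5′ end of each of the 9 genes, on an axis in kb with transcription to the right. Blue bars are gene bodies, lines are peaks with a height in proportion to the authors' score, and red lines are peaks assigned to the gene. The red lines lie upstream of *Atf7ip*, over and just beyond *Pphln1* and beyond *Cbx3*, and the grey line inside *Mphosph8* is assigned to another gene.

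The H3K9 methyltransferase genes had no assigned peak and none over their gene bodies. *Setdb1* lies at chr3:95323525-95357202 on the minus strand and is 33.7 kb long. Of protein-coding genes in the same decile of gene length (25.3 to 37.0 kb), 55.1% had an assigned peak. Only 2 peaks were centred within 100 kb of the *Setdb1* 5′ end, both upstream and both assigned to Gm4349. The nearer, 58.2 kb away, was 715 bp wide with a score of 9.63 and lay over the pseudogene Gm9173, and the other, 63.0 kb away, had a score of 8.02 and was centred on IAPEY3-int, the internal part of an intracisternal A particle, an endogenous retrovirus of the ERVK family. The nearest peak was as close or closer for 79.0% of protein-coding genes.

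*Setdb2*, at chr14:59402009-59440880 on the minus strand, had its nearest peak 8.56 kb upstream of its 5′ end. That peak had a score of 7.06, equal to the median of the list, was centred on a B1_Mus1 SINE, and lay in an intron of the neighbouring gene *Cab39l*, to which it was assigned. A further 2 peaks in *Cab39l*, 47.8 and 49.7 kb upstream, were centred on the LINE L1Md_F2 with scores of 5.78 and 7.7. On the other side, 82.8 kb downstream of the 5′ end, a peak with a score of 8.34 was centred on a B1_Mm SINE in an intron of *Phf11d*. All 4 peaks within 100 kb of *Setdb2* were thus centred on a repeat in an intron of another gene.

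*Atf7ip*, at chr6:136518789-136610850 on the plus strand, had 3 assigned peaks, all intergenic and upstream, and none over its 92.1 kb gene body. Genes in that decile of gene length (58.8 to 111 kb) had an assigned peak in 66.1% of cases, 3 or more in 25% and a peak over the body in 58.6%. The peak with the highest score of the 9 genes was at chr6:136514110-136514877, 4.36 kb upstream of the authors' TSS. It was 767 bp wide with a score of 12.5, a value reached by 7.29% of all peaks. It was centred on ORR1D1, a long terminal repeat (LTR) of the mammalian apparent LTR retrotransposons (ERVL-MaLR), and lay within the long noncoding RNA gene Gm44140 on the opposite strand.

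The second *Atf7ip* peak, at chr6:136486052-136486713, was 32.5 kb upstream of the TSS, 661 bp wide and had a score of 8.99, reached by 22.1% of peaks. The authors gave no repeat at its centre, and it overlapped the pseudogene Gm6728. BLAST against the genome placed 4 pieces of this peak, end to end, on 4 exons of *Coq2*, the gene of an enzyme of coenzyme Q synthesis on chromosome 5, with identities from 94.8 to 98.0%. The piece with 98.0% identity, bases 1 to 247 of the peak, matched chr5:100655228-100655474. The list held a WT-specific peak over that very stretch, at chr5:100655033-100655533 in the 3′ UTR of *Coq2*, with a score of 9.31. *Coq2* is named here because of this alignment, after the values were seen. The authors kept a single best location for reads that fit several places, and the part of this step in either peak was not tested.

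The farthest *Atf7ip* peak, at chr6:136480829-136481329, was 37.8 kb upstream, 500 bp wide, and centred on RMER19A, an LTR of the ERVK family. Its score of 6.42 was reached by 69.2% of peaks. It held TTGGCA at 2 places. For this peak and the one over Gm6728, the nearest RefSeq TSS was that of Gm36897, 17.4 and 22.7 kb away, so that 1 of the 3 peaks kept *Atf7ip* on recomputing. These last peaks of *Atf7ip* lay 5.3 kb apart, the closest pair among the 8.

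*Trim28*, at chr7:13024152-13031032 on the plus strand, is the shortest of the 9 genes with 6.88 kb and had no assigned peak, where 38.9% of genes in its decile of length had one. Its nearest peak, 27.7 kb upstream, lay over an exon of *Slc27a5* with a score of 5.46. Downstream, 33.0 and 40.6 kb from the 5′ end, were 2 peaks assigned to *Mzf1*. The farther of these was 1127 bp wide, was centred on ORR1B1, another ERVL-MaLR LTR, and had a score of 18.6, reached by 2.05% of all peaks. That score exceeded those of all 8 peaks assigned to the 9 genes.

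For HUSH, *Pphln1*, at chr15:93398345-93491913 on the plus strand, had 4 assigned peaks, which 10.5% of protein-coding genes reached or exceeded. In its decile of gene length (58.8 to 111 kb), 25% of genes had 3 or more assigned peaks and 58.6% had a peak over the body. The share with 4 or more was not counted by length. With the nearest TSS recomputed from RefSeq, 2 of the 4 were left, the first and second intron peaks, since the other two were nearer to *Prickle1*. Of the 4 peaks the authors assigned, 3 lay in introns of its 93.6 kb gene body and none was centred on a repeat. The peak at chr15:93420679-93421179 was 22.5 kb from the TSS in intron 3 of 8 of NM_001358748, 439 bp from the nearest exon, with a score of 7.38. The peak at chr15:93443496-93443996 was 45.3 kb from the TSS in intron 4 of 6 of NM_001358750, with a score of 7.7 and 1 copy of TTGGCA. The peak at chr15:93471198-93471698 was 73.0 kb from the TSS in intron 6 of 6 of the same transcript, with a score of 5.46, a value that 99.2% of peaks reached. The nearest RefSeq TSS to it was that of *Prickle1*, 48.1 kb away.

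The fourth *Pphln1* peak, at chr15:93494382-93495094, was intergenic, 2.83 kb beyond the 3′ end of the gene, 712 bp wide, and had a score of 9.63, reached by 17.1% of peaks. It lay 96.3 kb from the *Pphln1* TSS and 24.8 kb from that of *Prickle1*. Each of the 4 lay 22.8 or 23.3 kb from its nearest neighbour in the list. BLAST found no other alignment of 100 bp or longer for any of the 4. *Pphln1* also had 2 peaks 14.4 and 15.5 kb upstream of its 5′ end, assigned to *Zcrb1*, with scores of 5.78 and 7.06. Together, 8 peaks lay within 100 kb of its 5′ end, a number that 7.95% of protein-coding genes reached.

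*Mphosph8*, at chr14:56668235-56697430 on the plus strand, had no assigned peak, yet 1 peak lay inside it. This peak, at chr14:56692365-56693000, was 635 bp wide, was centred on an ID4 SINE in intron 10 of 13 of NM_001360072, and stood 24.4 kb from the 5′ end and 83.7% along the gene. The authors assigned it to Gm16973, whose TSS was 8.32 kb away. Its score of 5.46 was the same as that of the weakest *Pphln1* peak. A further 4 peaks lay within 100 kb of the 5′ end, those nearest to it 42.1 and 45.6 kb upstream over *Parp4* and centred on the LTRs RLTR18B and ORR1G.

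Among the HP1 genes, *Cbx3* alone had an assigned peak. *Cbx3* lies at chr6:51470154-51483704 on the plus strand, and the peak at chr6:51493072-51493572 was 22.1 kb from the authors' TSS and 9.62 kb beyond the 3′ end. It was centred on MTC, an ERVL-MaLR LTR, and had a score of 6.1, reached by 83.4% of peaks. It also began with a highly repeated stretch. Alignments of 100 bp or longer at 95% identity or more were found at 9005 other places, and all of them fell within the first 142 of its bases, 28.3% of the peak. In all 7 peaks lay within 100 kb of the *Cbx3* 5′ end, which 12.8% of protein-coding genes reached, and 4 of these were assigned to *Snx10*.

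*Cbx1*, at chr11:96788680-96808982 on the plus strand, had no peak nearer than 54.7 kb, and the pair of peaks at 54.7 and 56.9 kb, with scores of 7.06 and 6.42, was assigned to *Copz2*. *Cbx5*, at chr15:103191546-103239904 on the minus strand, had no peak over its 48.4 kb body, where 46.7% of genes in its decile of length (37.0 to 58.8 kb) had one. A peak with a score of 6.1 lay 3.74 kb beyond its 3′ end and another with a score of 10.3 lay 12.3 kb beyond it, both intergenic, without a repeat at the centre, and assigned to *Smug1*.

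**Figure D2:**
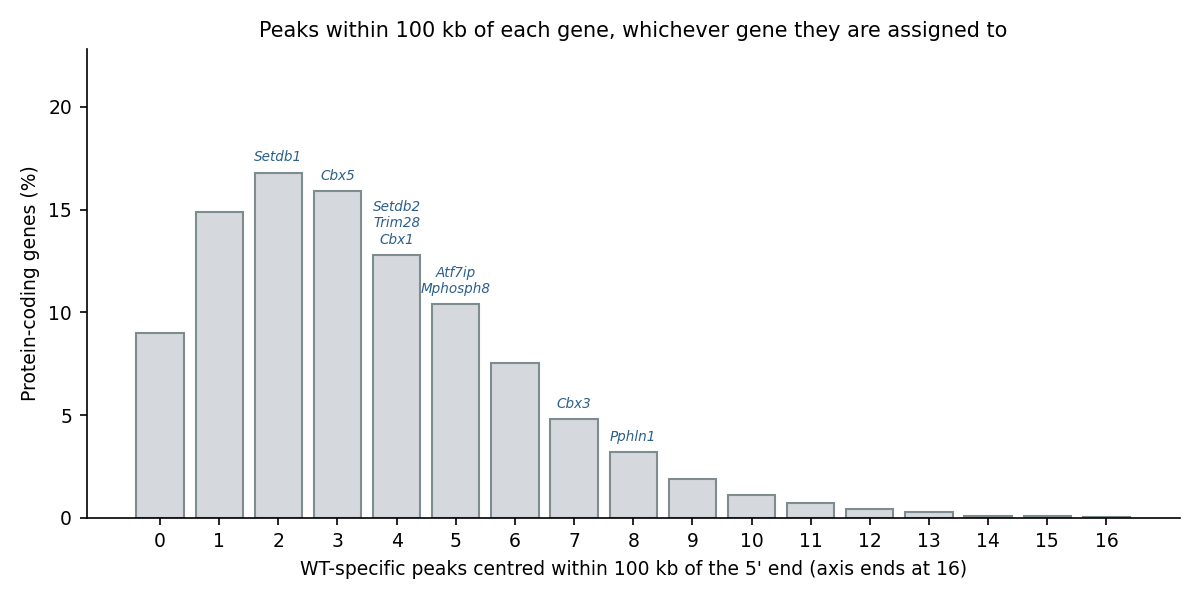
Share of protein-coding genes (in percent) by the number of WT-specific peaks centred within 100 kb of the 5′ end, whichever gene they were assigned to. The names above the bars place the 9 genes, which run from 2 peaks for *Setdb1* to 8 for *Pphln1*.

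Counted without regard to assignment, the 9 genes had a median of 4 peaks within 100 kb of the 5′ end, where all protein-coding genes had a median of 3 and quartiles of 2 and 5. The median distance to the nearest peak was 24.4 kb for the 9 genes and 23.4 kb for all. In the plot of peaks within 100 kb, only *Cbx3* and *Pphln1* were above the upper quartile and no member was below the lower one. The 9 genes were also longer, with a median of 33.7 kb against 17.7 kb, and longer genes more often had a peak over the body, from 10.9% in the decile that holds *Trim28* to 58.6% in the decile that holds *Atf7ip* and *Pphln1*.

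**Figure D3:**
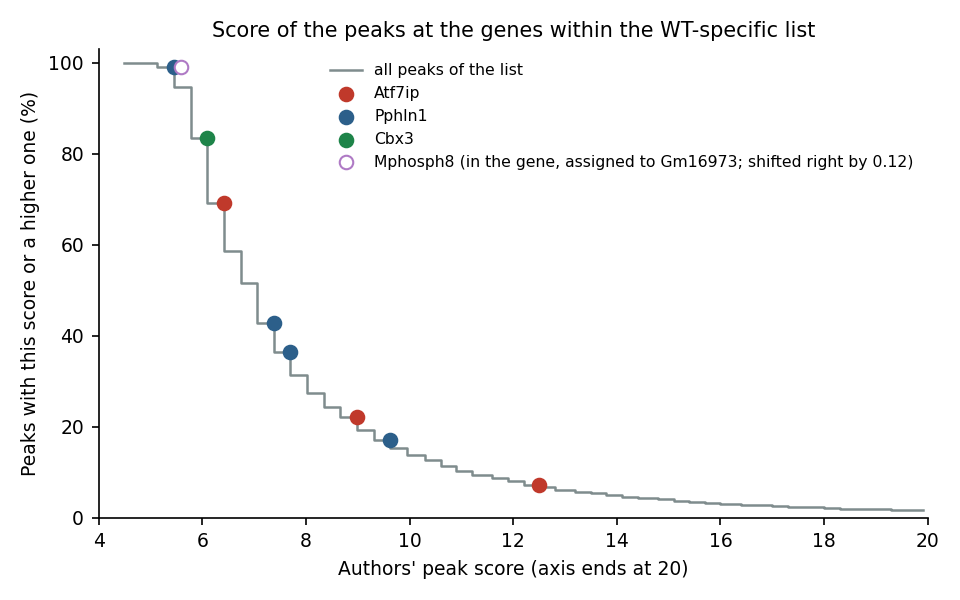
Share of all WT-specific peaks (in percent) that reach each score of the authors, with the 8 assigned peaks as filled points and the *Mphosph8* intron peak as an open point moved slightly to the right. The points run from 5.46, near the lowest scores, to 12.5 for the *Atf7ip* peak.

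The 8 assigned peaks had a median score of 7.54, ranging from 5.46 to 12.5, against 7.06 for the whole list, and 5 of the 8 were at or above that value. No source used here gives the scale of the score, so it serves only to rank peaks. The 29880 peaks with a score under 10 had 18 distinct scores, 0.32 or 0.33 apart, so that many peaks were tied. The *Cbx3* score, for example, was shared by 14.2% of all peaks. Of the 8 peaks, 3 were wider than 500 bp, the width of 77.1% of the list, and these were the 3 with the highest scores.

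By class, 5 of the 8 peaks were intergenic (62.5%, against 59.4% of the list) and 3 were in introns (37.5%, against 34.2%). The 3 centred on a repeat (37.5%) were all on LTRs, 2 of them ERVL-MaLR. In the whole list 54.0% of peaks were centred on a repeat, 26.6% on an LTR and 8.96% on ERVL-MaLR. Only the *Atf7ip* peak at ORR1D1 was within 10 kb of its TSS, as were 19.4% of all peaks, and the median distance was 35.1 kb against 37.4 kb. These shares rest on 8 peaks, so 1 peak moves them by more than the differences in the intergenic and intron shares. The shares on a repeat and on ERVL-MaLR differ from the list by little more than 1 peak, and neither difference was tested.

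**Figure D4:**
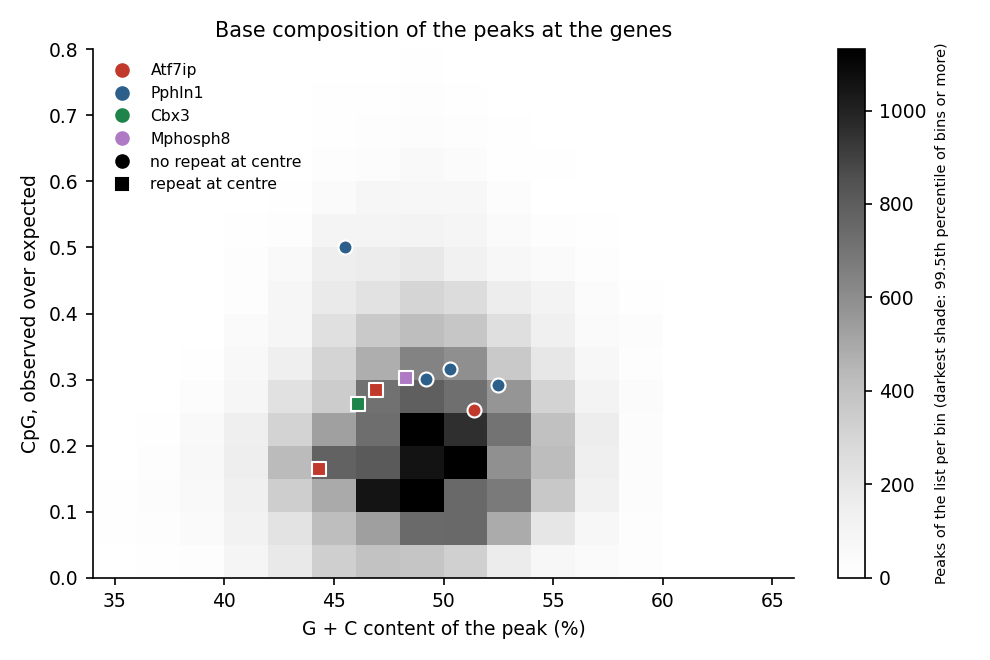
G + C content (in percent) against the observed over expected number of CpG of the peaks, with shading for the number of peaks of the whole list in each bin. Circles are peaks without and squares peaks with a repeat at the centre, and the *Pphln1* peak at 0.501 stands above the others.

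The G + C content of the 8 peaks ranged from 44.3 to 52.5% with a median of 48.0%, where the list had a median of 49.1% and quartiles of 46.5 and 51.7%. The observed over expected number of CpG, which is lowered where methylated cytosines have been lost over evolution, ranged from 0.164 for the RMER19A peak of *Atf7ip* to 0.501 for the last intron peak of *Pphln1*. Its median was 0.288 against 0.205 for the list, whose quartiles were 0.128 and 0.301. All but the RMER19A peak were above the median of the list, as was the *Mphosph8* peak with 0.302. Most of the 8 were no higher than the upper quartile, and they lie at only 3 genes, with 4 at *Pphln1*. TTGGCA was in 2 of the 8 peaks, 1 at *Atf7ip* and 1 at *Pphln1*, against 29.1% of all peaks.

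The copies found by BLAST differed between the genes. The ORR1D1 peak of *Atf7ip* had 98 other alignments of 100 bp or longer, the RMER19A peak 393 and the *Mphosph8* peak 893, and none of them reached 95% identity. The best reached 81.3, 88.7 and 84.2%. At this length, the Gm6728 peak of *Atf7ip* and the start of the *Cbx3* peak thus had the closest copies, as given above. Shorter alignments were not counted for the ORR1D1, RMER19A and *Mphosph8* peaks, so shorter close copies of these may have been missed.

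For context, 43 other genes of H3K9 methylation and silencing were counted in the same way. Of these, 26 (60.5%) had 59 assigned peaks in all, and 17 had none. The share was 50.9% over all protein-coding genes and 57.9% in the decile of gene length (37.0 to 58.8 kb) that holds the median length of these genes, 41.3 kb, so theirs was near that of genes of such length. Among the 7 further partners of HUSH and Setdb1, 2 had peaks. *Morc3*, of the MORC family of ATPases, had 3 and *Resf1*, a cofactor of Setdb1 in retroelement silencing, had 2, while *Tasor*, *Tasor2*, *Morc2a*, *Morc2b* and *Atf7ip2* had none. The other methyltransferases had peaks at 4 of 7 genes, the H3K9 demethylases at 4 of 5, the genes of DNA methylation at 3 of 4, the Trim28 and chromatin partners at 7 of 10, the KRAB zinc finger genes at 2 of 4, the nuclear factor I genes at 2 of 4 and the CDYL readers at 2 of 2. Each of these counts rests on 2 to 10 genes, too few to set a role apart from the 50.9% of all protein-coding genes.

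**Figure D5:**
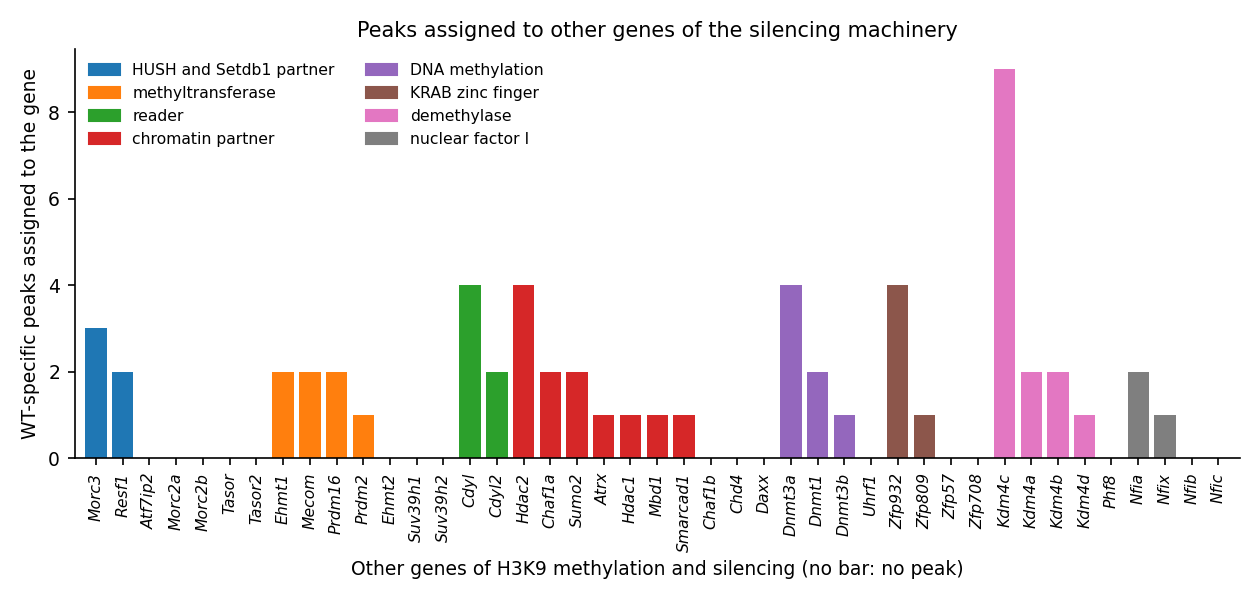
Number of WT-specific peaks assigned to each of 43 other genes of H3K9 methylation and silencing, coloured by role. *Kdm4c* has the highest bar with 9 peaks, and 17 genes have none.

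The demethylase gene *Kdm4c* had the most peaks of this list with 9, of which 8 were intergenic, 6 were centred on a repeat and only 1 lay over the gene body. *Dnmt3a* (a de novo DNA methyltransferase), *Cdyl* (a chromodomain reader), *Zfp932* and *Hdac2* followed with 4 each. Their highest scores were 16 for *Dnmt3a*, 15.4 for *Cdyl*, 12.2 for *Zfp932* and 9.31 for *Hdac2*. All 4 peaks of *Zfp932*, a KRAB zinc finger gene, were centred on a repeat, and 1 of 4 of *Dnmt3a*.

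Within 10 kb of the TSS, 18 of the 43 genes had 20 peaks, with scores from 5.78 to 16 and a median of 8.66. The list had a median of 7.06 over peaks at any distance from a TSS, and no median was taken for all its peaks within 10 kb. Of all protein-coding genes, 25.4% had a peak centre of any assignment within 10 kb of the 5′ end and 2.2% within 1 kb. That is a different measure, since the 20 peaks were counted by the authors' assignment and their distance to the authors' TSS. The 43 genes were also longer, with a median of 41.3 kb against 17.7 kb, and no share matched for length was counted. Whether they differ from other genes near the TSS was not tested. Of the 20 peaks, 10 were in introns, 7 were intergenic, 2 were in promoters and 1 was in an exon, and 10 were centred on a repeat. The promoter peaks were at *Dnmt1*, the maintenance DNA methyltransferase, with a score of 7.06, and at *Mbd1*, a binder of methylated DNA, with a score of 8.99. They were centred 0.653 and 0.663 kb upstream of the TSS, both without a repeat. The highest scores were those of the *Dnmt3a* peak, 2.1 kb upstream, 1404 bp wide and without a repeat, and of the *Cdyl* peak, 5.2 kb downstream in intron 1 on the LINE L1MA6.

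*Morc3* had a peak 3.91 kb upstream of its TSS, on RSINE1 with a score of 10.3, and another 3.99 kb downstream on B1_Mus2 with a score of 8.34. *Sumo2*, which encodes the SUMO-2 modifier, likewise had a peak upstream and another in an intron, with scores of 12.5 and 5.78. *Nfix*, of the nuclear factor I family, had 1 peak, 5.59 kb upstream on RSINE1, with a score of 9.63. *Prdm16* had its peak 8.49 kb upstream with a score of 10.9, and 9 peaks lay over its 321 kb body although only 2 were assigned to it. The others within 10 kb were at *Atrx*, *Chaf1a*, *Ehmt1*, *Hdac1*, *Hdac2*, *Kdm4a*, *Kdm4c*, *Resf1*, *Zfp809* and *Zfp932*, with scores from 5.78 to 11.2.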

How the data were processed

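H3K9me3 ChIP-seq libraries of sorted BG at postnatal day 10 were used in groups of 2 WT, 2 Setdb1 mutant and 2 control libraries, grouped by their labels. Chromatin was sheared to 200 to 350 bp and precipitated with 1.5 µg of antibody. Per the study's methods and the submitters' processing notes, the authors aligned reads to mm10 with Bowtie2 2.2.8, retained for each multiply aligned read its best place, with a maximum of 1 tag at a position, and called peaks with HOMER 4.10.1 at a set false discovery rate and enrichment over the local background. Reads in repeats were thus kept but placed once, so close copies can share or trade signal. The 1 deposited list gives, per peak, position, width, the deposited peak score, class, repeat at the centre, nearest TSS and gene. The scale of the score and the way the libraries were merged are not given in the sources used here, and the heading of the list leaves unclear whether input, mutant BG or both served as background. Depth per sample is unknown.

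Members and gene lists were chosen with earlier results of these data known. Python 3.11.15 with pandas 2.3.3 and pysam 0.24.0 counted peaks by the authors' gene, over gene bodies (1 bp or more) and within 1, 10 and 100 kb of 5′ ends, beside 21000 protein-coding genes of RefSeq GRCm38.p6 with a curated transcript. BLAST+ 2.17.0 aligned each peak to the genome, with alignments of 100 bp or longer and 70% identity or more counted. For the peak over Gm6728, shorter pieces were also listed. No test was run, since no value per library is at hand. Counting steps were tested on simulated data. Named were all members, genes whose body holds a member's peak, genes assigned a peak in a member's body, and, of the 43 other silencing genes (1 further gene of that list is not reported here), the 4 with most peaks (ties by highest score; *Hdac2*, tied, was added) and those with a peak within 10 kb of the TSS. Neighbouring genes were named after their peaks were seen.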

Additional observations from a re-analysis of the deposited data

How the results depend on the processing

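No paired analysis was possible because the list merges the libraries and holds no value per library, and for the same reason no library could be left out in turn. Limiting the list to peaks at or above its median score left 5 peaks assigned to the 9 genes in place of 8, as did leaving out peaks centred on a repeat. Within 10 kb of the TSS, 1 gene and 1 peak remained, with a score of 12.5. Outside the intergenic class, 1 gene had 3 peaks. With the nearest TSS recomputed from RefSeq, 4 peaks at 3 genes kept their assignment, since 2 *Atf7ip* peaks went to Gm36897 and 2 *Pphln1* peaks to *Prickle1*; over the list 89.8% of 34595 peaks kept theirs. Gene bodies with 5 kb to either side held peaks for 4 of the 9 genes in place of 2, with *Atf7ip* and *Cbx5* added. Of the 43 other genes, 16 had a peak not centred on a repeat in place of 26. The changes other than that of the nearest TSS follow from the narrower or wider choice of peaks. Under the other settings the numbers of genes and the median score stayed within 1.5 times or 0.33 of those given. Counts of 1 to 9 peaks and unknown depth limit how finely the genes can be ranked, and a gene without a peak may still carry H3K9me3 in both genotypes, below the threshold, or in mutant BG alone.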
